A study of Mus musculus with 9 samples.

Results

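The pentose phosphate pathway and the other main cytosolic sources of NADPH were followed through 8 genes, out of 54532 genes with values. The 8 were taken by symbol from the pathway's enzymes, with earlier results of these data known. They were G6pdx, Pgls and Pgd of the oxidative branch, Rpia, Tkt and Taldo1 of the non-oxidative branch, and Me1 and Idh1, which make NADPH outside the pathway. All 8 symbols were found once each, and all 8 passed the filter on low values, which kept 11585 genes with an FPKM (the deposited expression value, which corrects reads for gene length and sequencing depth) of at least 1 in at least 3 libraries.

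RNA-seq had been run on RAW264.7 cells, a mouse macrophage line grown from an ascites tumour, in 3 groups of 3 libraries. Control cells were untreated. LPS-treated cells received lipopolysaccharide, the bacterial surface molecule that macrophages sense through Toll-like receptor signaling, at 1 μg/ml for 6 h. LPS + G-CDs cells received the same LPS together with carbon dots made from roasted Glycyrrhiza (G-CDs) at 400 μg/ml for 6 h. All groups were wild type and came from 1 cell line. No group received G-CDs without LPS, and no incubation time was found for the control. The treatment field of the LPS + G-CDs libraries names LPS alone, and their titles were used for the group. Nothing in the labels says that the replicates were separate cultures, so the p-values measure the spread between these libraries, which may be technical.

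The pathway branches off glycolysis at glucose 6-phosphate. Its oxidative branch makes NADPH and ribulose 5-phosphate, and its non-oxidative branch exchanges sugar phosphates between ribose 5-phosphate and glycolysis. Macrophages spend NADPH in opposite ways, as the electron source of the superoxide-making NADPH oxidase and of nitric oxide synthase, and as the source of reducing power for glutathione and thioredoxin. Several of the 8 genes, among them G6pdx, Pgd, Taldo1, Tkt and Me1, are known targets of Nrf2, a transcription factor that binds the antioxidant response element.

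The sequences upstream of G6pdx and Pgd are shown because these 2 genes catalyse the NADPH-making steps of the pathway, and because the element can be looked for in them. Each is the 250 bases before the RefSeq start (GRCm38.p6), written in the direction of transcription. The G6pdx window lies on the minus strand at chrX:74428881-74429130, and the first Pgd window on the minus strand at chr4:149166706-149166955. Capitals mark a match to TGACNNNGC, the core of the element, on either strand.
G6pdx: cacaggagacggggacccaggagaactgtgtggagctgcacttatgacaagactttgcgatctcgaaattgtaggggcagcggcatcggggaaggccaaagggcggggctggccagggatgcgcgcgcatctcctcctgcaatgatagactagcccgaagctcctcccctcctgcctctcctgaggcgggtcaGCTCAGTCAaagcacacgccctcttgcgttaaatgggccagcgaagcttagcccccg
Pgd: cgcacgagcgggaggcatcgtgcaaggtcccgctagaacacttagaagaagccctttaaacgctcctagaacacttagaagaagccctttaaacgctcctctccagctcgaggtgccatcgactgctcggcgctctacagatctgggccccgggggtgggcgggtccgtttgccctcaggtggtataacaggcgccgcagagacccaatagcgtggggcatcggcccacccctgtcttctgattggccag
The match in G6pdx was on the strand opposite to the gene, where it reads TGACTGAGC, and lay 57 bases before the start. It was the only match among the 11 RefSeq windows of the 8 genes, which makes 1 of 8 genes. The same letters were found in 10.2% of all 32851 windows of this length, and in at least 1 window of 11.5% of genes. Neither of the 2 Pgd windows held them. A match is a description of these letters and says nothing about binding, and its absence covers only these 250 bases.

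Macrophage markers were present in all libraries, and of the markers of other cell types 1 passed 1 FPKM. All 8 macrophage markers (Csf1r, Adgre1, Cd68, Itgam, Lyz2, Fcgr1, Spi1 and Ptprc) had an FPKM of at least 1 in all 9 libraries, with a summed FPKM of 2240 to 3170 in control, 1650 to 1720 in LPS and 1300 to 1930 in LPS + G-CDs. The part of this sum in the results was not tested. The markers looked for in T cells, B cells, fibroblasts, epithelium, hepatocytes and endothelium stayed under 1 FPKM in all libraries. Of the 2 neutrophil markers 1 did so, and their summed FPKM was 0.154 to 0.338 in control, 0.198 to 0.730 in LPS and 0.797 to 2.15 in LPS + G-CDs, which lay above all other libraries. The part of these markers in the results was not tested. The 6 LPS-response genes that served to check the labels (Tnf, Il1b, Il6, Nos2, Cxcl2 and Ptgs2) were called higher in both LPS-containing groups than in control. The libraries held between 14752400 and 17312255 reads on genes, and no value of the 8 genes rested on fewer than 432 reads.

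Among the 8 genes, 1 was called higher with G-CDs than with LPS alone, and 3 were called lower with LPS than in control. In LPS + G-CDs against LPS all 8 log2 fold changes of FPKM + 1 were above 0, with a median of 0.45, where the median of all 11585 genes was 0.02 and 52.0% of genes were above 0. The median was 0.288 without LPS + G-CDs replicate 3 and 0.297 under TPM, a scaling of every library to the same summed expression, which moved the median of all genes to −0.14, and Me1 fell below 0 under TPM (−0.07). Only Pgd was called at a Benjamini-Hochberg adjusted p under 0.05 in limma, beside 0.250% of all genes called higher and 0.242% called lower. Pgd and G6pdx also passed a second rule, an unadjusted p under 0.01 with more than 1.5-fold, which 1.24% of all genes passed as higher. In 6 of the 8 genes every LPS + G-CDs library lay above every LPS library, against 12.9% of all genes. Under TPM 5 did so, against 10.5% of all genes, since Idh1 then overlapped. In bulk RNA, fewer cells and less RNA per cell cannot be told apart.

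LPS against control went the other way for 7 of the 8 genes. The median log2 fold change was −0.56, against 0.02 over all genes, and Me1 alone was above 0. Pgd, Rpia and Idh1 were called lower, where 15.6% of all genes were called lower and 15.8% higher. These counts depended on the scaling: TPM called 6 of the 8 lower beside 26.4% of all genes (8.66% higher), and quantile scaling called 5 beside 20.3% (14.1% higher). In 5 of the 8 genes (Pgls, Pgd, Taldo1, Rpia and Idh1) every LPS library lay below every control library, against 25.1% of all genes. Under TPM 7 did so, against 38.4% of all genes. Both contrasts share the LPS libraries, so a fall in the first and a rise in the second are not separate evidence.

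In LPS + G-CDs against control the 8 genes split evenly, with 4 above 0 and 4 below, and a median of 0.10 against 0.02 over all genes. Idh1 was the only gene called, lower than control, where 12.4% of all genes were called lower and 12.8% higher. G6pdx lay above control in every library, in FPKM, without being called. Without overlap, 17.7% of all genes lay above control and 16.6% below. Under TPM 0 of the 8 genes lay above control without overlap and 4 (Pgd, Tkt, Rpia and Idh1) below, against 7.97% and 33.0% of all genes. The sign of this median was not stable, since it was −0.34 under TPM, −0.18 under quantile scaling and −0.08 without LPS + G-CDs replicate 3.

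**Figure D1:**
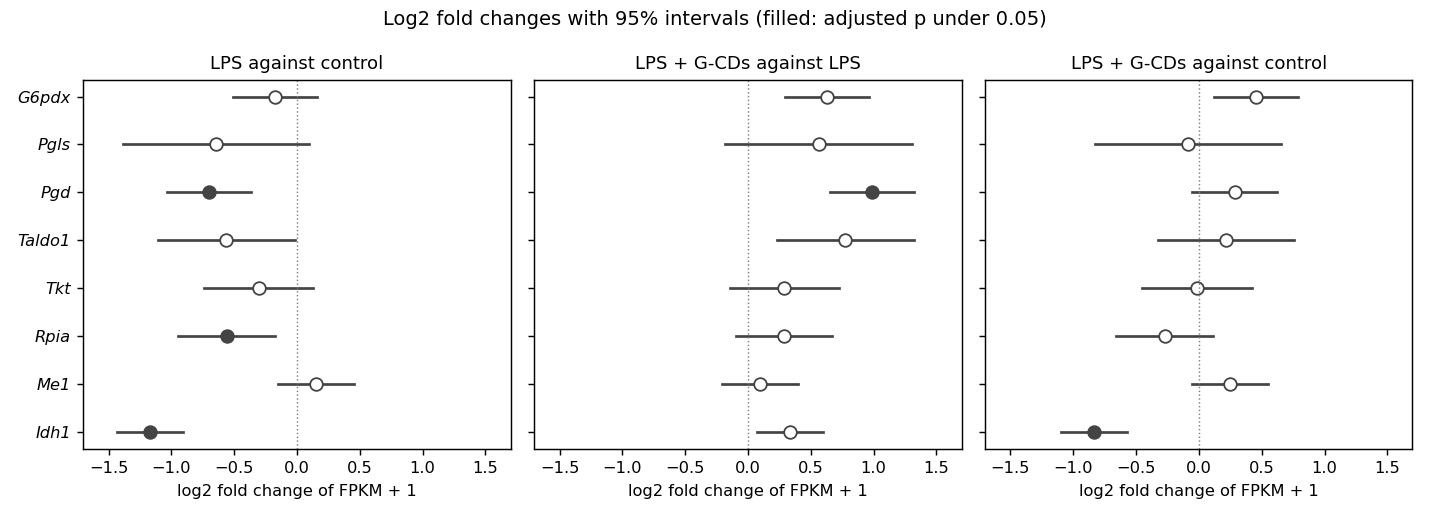
Log2 fold changes of FPKM + 1 (x axis) of the 8 genes in the 3 contrasts. Points are limma estimates, lines are 95% intervals, and filled points have an adjusted p under 0.05. Filled are Pgd, Rpia and Idh1 in LPS against control, Pgd in LPS + G-CDs against LPS, and Idh1 in LPS + G-CDs against control. All 8 points of the middle panel lie above 0, where Me1 alone changes sign, under TPM.

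G6pdx encodes glucose-6-phosphate dehydrogenase, the first and rate-limiting enzyme of the oxidative branch (ENSMUSG00000031400, GRCm38 chrX:74409483-74429194, minus strand). Its FPKM was 75.0, 100.7 and 103 in control, 81.0, 79.4 and 83.0 in LPS, and 132, 131 and 117 in LPS + G-CDs. In FPKM the LPS + G-CDs libraries were above all other libraries, while LPS lay within the range of control. In TPM the values were 265, 371 and 327 in control, 233, 227 and 238 in LPS, and 396, 341 and 247 in LPS + G-CDs, so that LPS + G-CDs lay above LPS and overlapped control. Means were 92.9 ± 15.5, 81.1 ± 1.77 and 126 ± 8.30 (SD, n = 3). The log2 fold change in LPS + G-CDs against LPS was 0.63 ± 0.15 (SE), a ratio of means of 1.56, with an adjusted p of 0.15 in limma. It was called in 1 of 21 alternative analyses, the one without control replicate 1. Against control the change was 0.45 ± 0.15 with a limma adjusted p of 0.053, and 4 of 21 alternatives called it. It was 0.018 under TPM and 0.13 under quantile scaling (limma adjusted p 0.949 and 0.675). LPS against control gave −0.18 ± 0.15. This was −0.32 without control replicate 1, −0.10 without control replicate 3, −0.45 under TPM and −0.065 with length and GC trends removed.

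G6pdx lies wholly within the span of Ikbkg, which runs on the opposite strand, and the strandedness of the libraries is not given in the sources used here. Ikbkg held 494 to 943 reads, where G6pdx held 3378 to 6680. Of the 50-base words in the longest G6pdx transcript 10.7% occur in Ikbkg or in the autosomal copy G6pd2, and G6pd2 had 0 reads in all libraries. The share of reads that could have been assigned to a neighbour was not tested.

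Pgls encodes 6-phosphogluconolactonase, which opens the lactone made by G6pdx (ENSMUSG00000031807, chr8:71592176-71601092, plus strand). The values were 26.9, 19.2 and 33.2 FPKM in control, 14.8, 14.7 and 19.2 in LPS, and 15.1, 23.3 and 40.4 in LPS + G-CDs. Among the 8 genes its LPS + G-CDs libraries were the most spread out in proportion, and 1 of them was as low as LPS. The highest LPS library and the lowest control library were almost equal. The change in LPS + G-CDs against LPS rested on single libraries, at 0.21 without LPS + G-CDs replicate 3 and 0.89 without replicate 1. No contrast was called, with 0.56 ± 0.33 in LPS + G-CDs against LPS (limma adjusted p 0.36) and −0.65 ± 0.33 in LPS against control (limma adjusted p 0.17). The latter was called in 1 of 21 alternatives, TPM (−0.93). Fam129c overlaps Pgls on the same strand over 3445 bases and held 74 to 289 reads, where Pgls held 765 to 2227.

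Pgd encodes 6-phosphogluconate dehydrogenase, which makes the second NADPH of the branch (ENSMUSG00000028961, chr4:149149991-149166771, minus strand). Its FPKM was 99.1, 84.6 and 102 in control, 58.9, 54.7 and 60.7 in LPS, and 98.9, 116 and 136 in LPS + G-CDs. All LPS libraries were below all others, and control and LPS + G-CDs overlapped. Means were 95.4 ± 9.43, 58.1 ± 3.06 and 117 ± 18.4 (SD, n = 3). LPS + G-CDs against LPS gave a log2 fold change of 0.99 ± 0.15, a ratio of 2.01, with a limma adjusted p of 0.031. This rise ranked 72 among the 11585 genes. LPS against control gave −0.70 ± 0.15 with an adjusted p of 0.0068 in limma. The difference between LPS + G-CDs and control was 0.28 (95% interval −0.05 to 0.62) and was not called. It turned to −0.15 under TPM and −0.053 under quantile scaling.

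The fall of Pgd in LPS was called in all 21 alternatives. The rise with G-CDs was called in 13 of 21, with fold changes of 0.83 to 1.13 and adjusted p of 0.0127 to 0.207 over these limma analyses. The call was lost without any 1 LPS library (0.133 to 0.207), without LPS + G-CDs replicate 2 (0.178) or 3 (0.068), without control replicate 2 (0.0573), with no filter (0.0552) and with the 6 libraries of the contrast alone (0.0734). The call was kept without control replicate 1 or 3, and without LPS + G-CDs replicate 1.

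The summed FPKM of the oxidative branch kept the 3 groups apart, but only LPS stayed apart under TPM. G6pdx, Pgls and Pgd together came to 201, 205 and 238 in control, 155, 149 and 163 in LPS, and 246, 270 and 293 in LPS + G-CDs. In FPKM LPS was lowest and LPS + G-CDs highest in all libraries. In TPM the sums were 709, 754 and 758 in control, 445, 426 and 468 in LPS, and 738, 706 and 619 in LPS + G-CDs, which overlapped control. Means were 214.6 ± 20.6, 155.5 ± 7.04 and 269.7 ± 23.5 (SD, n = 3). G6pdx and Pgd did not keep 1 proportion: the ratio of G6pdx to Pgd was 0.757 to 1.19 in control, 1.37 to 1.45 in LPS and 0.862 to 1.33 in LPS + G-CDs.

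**Figure D2:**
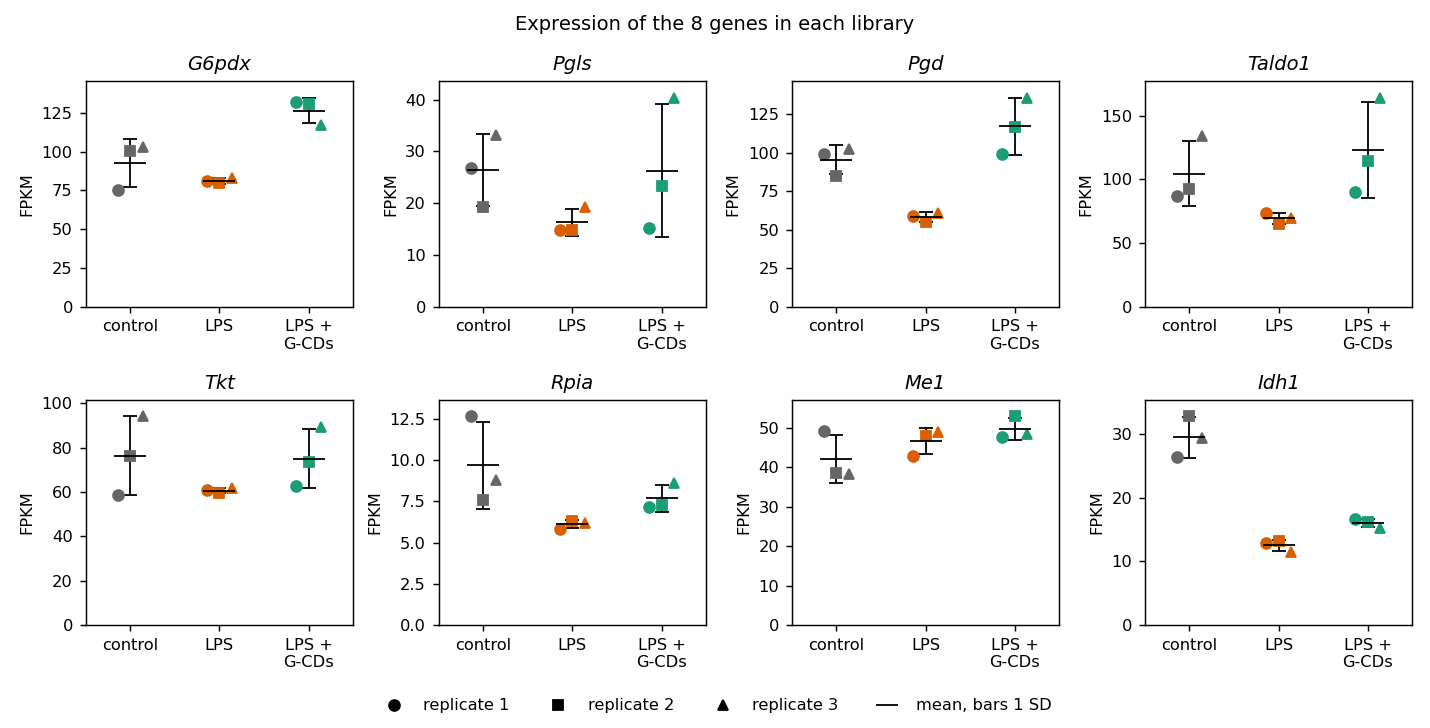
FPKM (y axes, from 0) of the 8 genes in each library, by group. Symbols stand for the replicate number, horizontal bars for the mean and vertical bars for 1 SD of 3 libraries. In FPKM LPS is the lowest group for Pgd, Taldo1, Rpia and Idh1 with no overlap and G6pdx is highest in LPS + G-CDs. Under TPM, Idh1 of LPS + G-CDs overlaps LPS and G6pdx overlaps control. In proportion to their means Pgls and Taldo1 have the widest LPS + G-CDs spread (15.1 to 40.4 and 89.8 to 164).

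Rpia encodes ribose-5-phosphate isomerase, which makes the sugar used for nucleotides (ENSMUSG00000053604, chr6:70765720-70792232, minus strand). It had the lowest level of the 8 genes in all groups, at 12.7, 7.58 and 8.78 FPKM in control, 5.83, 6.28 and 6.19 in LPS, and 7.14, 7.30 and 8.61 in LPS + G-CDs. LPS lay below both other groups, and control replicate 1 stood above the other control libraries. LPS against control gave −0.56 ± 0.17 with an adjusted p of 0.034 in limma, called in 14 of 21 alternatives. Without control replicate 1 the change was −0.37 and was not called (limma adjusted p 0.0554), and the call was also lost without control replicate 3, any 1 LPS library or LPS + G-CDs replicate 2, and with no filter. LPS + G-CDs against LPS gave 0.29 ± 0.17 (adjusted p 0.37 in limma). LPS + G-CDs against control gave −0.27 ± 0.17 and was called under TPM alone (−0.71). It was −0.08 without control replicate 1. Words of 50 bases shared with other genes made up 5.6% of its longest transcript. Among the sharing genes, Dhx33 held 1017 to 1820 reads and D10Wsu102e 887 to 1750, where Rpia held 432 to 1272, and reads assigned between them were not tested.

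Tkt encodes transketolase, which moves 2-carbon units between sugars (ENSMUSG00000021957, chr14:30548359-30574720, plus strand). The values were 58.7, 76.3 and 94.1 FPKM in control, 60.7, 59.3 and 61.6 in LPS, and 62.4, 73.5 and 89.2 in LPS + G-CDs. The LPS libraries were close together at the lower end of the control range, and LPS + G-CDs lay just above them. No contrast was called: LPS against control gave −0.30 ± 0.19, LPS + G-CDs against LPS 0.29 ± 0.19, and LPS + G-CDs against control −0.01 ± 0.19, with limma adjusted p of 0.27, 0.40 and 0.97. The first was −0.14 without control replicate 3 and −0.48 without control replicate 1, and the second 0.16 without LPS + G-CDs replicate 3. The first was called under TPM (−0.58) and quantile scaling (−0.45), and the last under TPM (−0.45), with limma adjusted p of 0.0136, 0.0362 and 0.0389.

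Taldo1 encodes transaldolase, which moves 3-carbon units (ENSMUSG00000025503, chr7:141392199-141402968, plus strand). Its FPKM was 87.4, 92.2 and 134 in control, 73.5, 65.1 and 69.4 in LPS, and 89.8, 115 and 164 in LPS + G-CDs. LPS was below both other groups, which overlapped each other. LPS + G-CDs against LPS gave 0.78 ± 0.24, a ratio of 1.77, with an unadjusted p of 0.0103 and an adjusted p of 0.25 in limma. It was called in 0 of 21 alternatives. LPS against control gave −0.56 ± 0.24 (limma adjusted p 0.11) and was called in 5 of 21, and was −0.37 without control replicate 3. Of its 50-base words 10.9% occur in Gm17823, which had 0 reads.

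The non-oxidative branch was summed in the same way. Rpia, Tkt and Taldo1 summed to 159, 176 and 237 FPKM in control, 140.0, 131 and 137 in LPS, and 159, 196 and 262 in LPS + G-CDs. LPS was lowest, and control and LPS + G-CDs overlapped almost fully. In TPM the sums were 560.0 to 755 in control, 374 to 403 in LPS and 478 to 554 in LPS + G-CDs, which then lay between the others. The ratio of oxidative to non-oxidative FPKM was 1.27, 1.16 and 1.00 in control, 1.11, 1.14 and 1.19 in LPS, and 1.54, 1.38 and 1.12 in LPS + G-CDs. LPS + G-CDs replicates 1 and 2 were above all other libraries, and replicate 3 was not. The sums and ratios rest on the deposited gene lengths, and no test was run on them.

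Me1 encodes cytosolic malic enzyme, which makes NADPH while turning malate into pyruvate (ENSMUSG00000032418, chr9:86581371-86695953, minus strand). The values were 49.2, 38.6 and 38.4 FPKM in control, 42.8, 47.9 and 49.1 in LPS, and 47.7, 52.9 and 48.6 in LPS + G-CDs. All 3 groups overlapped. The changes were 0.15 ± 0.13 in LPS against control, 0.09 ± 0.13 in LPS + G-CDs against LPS (95% interval −0.21 to 0.40) and 0.24 ± 0.13 in LPS + G-CDs against control, and none was called in any of 21 alternatives. All 3 turned negative under TPM (−0.12, −0.07 and −0.19), and the first also under quantile scaling (−0.00047). The first was 0.27 without control replicate 1 and 0.09 without control replicate 3. The second was 0.035 without LPS replicate 1. Of the 50-base words of Me1 32.8% occur in Gm7049, Gm48795 or Gm7329, which held at most 10 reads each, so its counts are uncertain where reads from shared sequence were dropped or divided.

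Idh1 encodes the cytosolic isocitrate dehydrogenase, which makes NADPH while turning isocitrate into 2-oxoglutarate (ENSMUSG00000025950, chr1:65158616-65186500, minus strand). Its FPKM was 26.4, 32.9 and 29.4 in control, 12.9, 13.1 and 11.5 in LPS, and 16.7, 16.1 and 15.3 in LPS + G-CDs. The 3 groups did not overlap in FPKM: control was highest, LPS lowest, and LPS + G-CDs lay between, closer to LPS. In TPM LPS + G-CDs (32.4 to 50.1) overlapped LPS (33.1 to 37.6), and both stayed below control. Means were 29.5 ± 3.24, 12.5 ± 0.883 and 16.0 ± 0.687 (SD, n = 3). LPS against control gave −1.17 ± 0.12, a ratio of 0.424, with an adjusted p of 9.27e-05 in limma. LPS + G-CDs against control gave −0.84 ± 0.12 with a limma adjusted p of 0.00083. Both calls were made in all 21 alternatives. LPS + G-CDs against LPS gave 0.33 ± 0.12, with an unadjusted p of 0.0189 and an adjusted p of 0.29 in limma, called in 0 of 21.

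Me1 and Idh1 therefore stood in another proportion in LPS-containing groups than in control. The FPKM of Me1 was 1.87, 1.18 and 1.305 times that of Idh1 in control, 3.31, 3.64 and 4.26 times in LPS, and 2.86, 3.28 and 3.17 times in LPS + G-CDs. The control libraries lay below all others. Their summed FPKM differed less, at 71.6 ± 3.92 in control, 59.1 ± 2.95 in LPS and 65.8 ± 2.86 in LPS + G-CDs (SD, n = 3). In TPM the sums were 266.9, 263.5 and 215.7 in control, 160.2, 174.5 and 174.0 in LPS, and 193.4, 180.6 and 135.1 in LPS + G-CDs. In TPM both LPS-containing groups thus lay below control, and LPS + G-CDs overlapped LPS.

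In all groups G6pdx, Pgd, Taldo1 and Tkt had the higher mean levels and Rpia the lowest. FPKM is per gene length, so levels can be set side by side. In control the order of means was Taldo1, Pgd, G6pdx and Tkt, each overlapping the next, then Me1, Idh1 and Pgls, the last pair overlapping, and Rpia. In LPS it was G6pdx, Taldo1, Tkt, Pgd, Me1, Pgls, Idh1 and Rpia, where only Tkt and Pgd overlapped. In LPS + G-CDs it was G6pdx, Taldo1 and Pgd, each overlapping the next, then Tkt, Me1, Pgls and Idh1, the last pair overlapping, and Rpia. With the deposited lengths Idh1 thus stood above Pgls in the mean of control and below it in the other groups. The groups of Idh1 and Pgls did not overlap in LPS. Deposited and longest transcript lengths were 2771 and 2302 bases for Idh1, and 3770 and 2688 for Pgls. Whether this change of order holds for transcript lengths was not tested.

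Spread among the LPS + G-CDs libraries was large for part of the genes. Pgls deviated from its group mean by −0.65, −0.06 and 0.71 on the log2 scale in replicates 1, 2 and 3, and Taldo1 by −0.41, −0.05 and 0.46. Tkt and Pgd ranged from −0.25 to 0.26 and from −0.23 to 0.22. Replicate 1 was the lowest and replicate 3 the highest for these genes. G6pdx (−0.11 to 0.06) and Idh1 (−0.06 to 0.05) were instead lowest in replicate 3.

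A spread in the same libraries was seen over all genes, by gene length. Tested genes were split by deposited gene length into 3 classes, with median lengths of 1281, 3759 and 7446 bases. In the shortest class the median deviation was −0.248, −0.021 and 0.271 in LPS + G-CDs replicates 1, 2 and 3, and in the longest it was 0.197, −0.003 and −0.199. Control also spread by length, with −0.061, −0.069 and 0.167 in the shortest class and 0.085, 0.095 and −0.162 in the longest for replicates 1, 2 and 3. In the LPS libraries the medians of all classes lay between −0.021 and 0.018. Taldo1, with 2171 bases, moved as the shortest class did. Tkt and Pgd, with deposited lengths of 7355 and 6447 bases, moved opposite to the longest class. Their longest annotated transcripts have 3223 and 3644 bases, so their class depends on the length used. With the trend by deposited length removed from each library, the change in LPS + G-CDs against LPS was 1.12 for Pgd (limma adjusted p 0.0432). It was 0.58 for Taldo1, 0.53 for G6pdx, 0.53 for Pgls and 0.47 for Tkt. For Rpia it was 0.36, for Idh1 0.20 (0.33 before) and for Me1 0.069. What made the libraries differ by length was not tested.

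**Figure D3:**
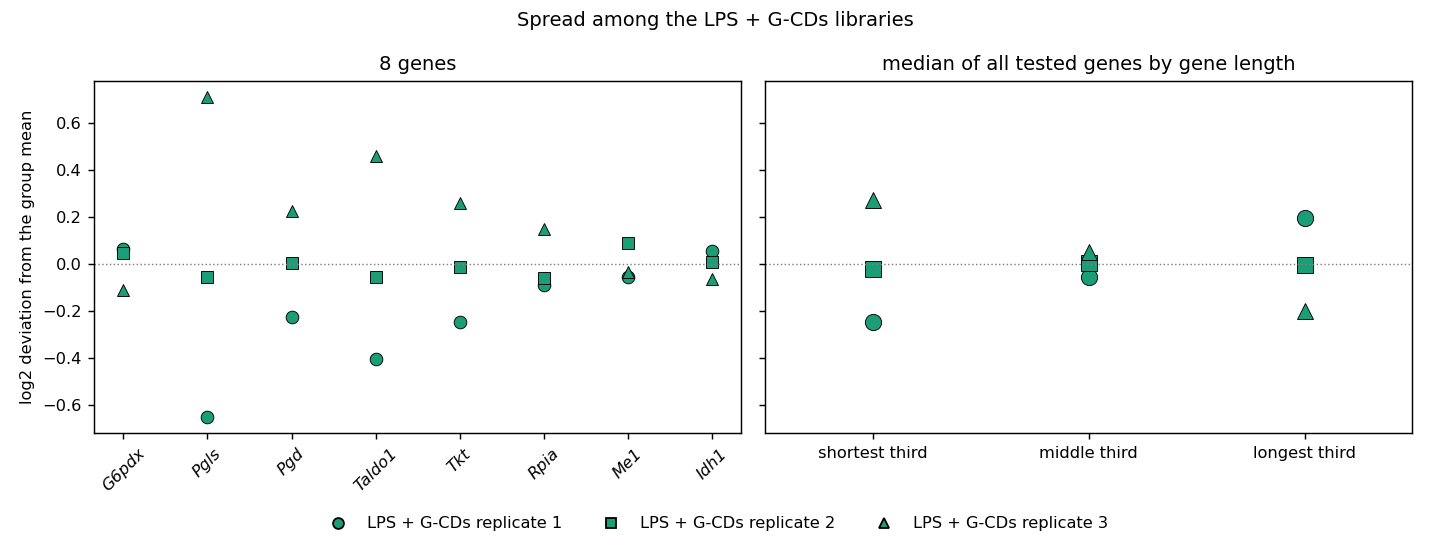
Deviation of each LPS + G-CDs library from the group mean (y axis, log2 of FPKM + 1) for the 8 genes (left) and as the median of all tested genes in 3 classes of gene length (right). Symbols stand for the replicate. Replicate 3 is highest and replicate 1 lowest for Pgls, Pgd, Taldo1, Tkt and Rpia and in the shortest class, and the order is turned in the longest class.

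Likeness between the genes is described over all 9 libraries as Pearson's r of log2(FPKM + 1). Genes share the group, the depth and the spread between replicates described above, and the part of each in r was not tested. Among the 8, the highest values were 0.90 for Pgd with Taldo1, 0.89 for Taldo1 with Tkt and 0.87 for Pgls with Taldo1. G6pdx had 0.71 with Pgd and 0.24 with Pgls. Me1 and Idh1 had −0.61. Over all tested genes, G6pdx was most like Slc48a1 (0.933), Hebp2 (0.925) and Defb25 (0.925), and Pgd most like Creg1 (0.972), Psmd5 (0.971) and Klhl41 (0.970). The nearest genes were Mgmt, Pycrl and Mrpl28 for Pgls (0.987 to 0.988), Tmem177, Naxe and Cox14 for Taldo1 (0.981 and above), and H2afz, Dap and Fxyd2 for Tkt (0.979 to 0.983). They were Mief2, Rpa3 and Acaa1b for Rpia (0.978 to 0.982), Msantd4, Spata5 and Uimc1 for Me1 (0.921 to 0.942), and Shtn1, Gm2a and Slc25a51 for Idh1 (0.988 to 0.994).

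The rest of the pathway was followed in 13 further genes, of which 9 were tested. None was called in LPS + G-CDs against LPS by limma on FPKM or by its voom form on reads. At an unadjusted p under 0.05 in limma 1 was higher and 0 lower (7.19% and 8.04% of all genes). The median was 0.10, and lay between −0.10 and 0.31 over the alternatives. In LPS against control 2 were called higher and 2 lower, of 9, beside 15.8% and 15.6% of all genes. Prps2, which makes the nucleotide precursor PRPP from ribose 5-phosphate, fell from 22.2 ± 3.16 to 10.4 ± 1.10 FPKM (−1.02 ± 0.15, limma adjusted p 0.0011), and H6pd, the enzyme of the endoplasmic reticulum that carries out the first steps there, fell by 0.70 on the log2 scale (limma adjusted p 0.0031). Rpe, ribulose-phosphate epimerase, rose by 0.49 and Tigar, a fructose bisphosphatase that feeds the pathway, by 0.32 (called in 19 and 12 of 21 alternatives). Under TPM they were 0.25 and 0.08 and not called. Prps2 was also lower in LPS + G-CDs than in control (−1.19, called in all 21). Rpe was called higher there (0.42) in 14 of 21 alternatives, with 0.01 under TPM, and the call was lost without control replicate 2 or 3 or LPS + G-CDs replicate 2. For H6pd the LPS + G-CDs values of 7.79, 5.96 and 5.78 FPKM lay above the LPS values of 4.37, 4.95 and 4.35, with a change of 0.43 that was not called (adjusted p 0.24 in limma).

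Other sources of NADPH and of NADP also gave no call in LPS + G-CDs against LPS. Of 13 genes 9 were tested, with a median of −0.12, and at an unadjusted p under 0.05 there were 2 higher and 1 lower (7.19% and 8.04% of all genes). The voom form called 0. In LPS against control Mthfd2, a mitochondrial enzyme of folate metabolism, rose from 42.8 ± 7.76 to 83.4 ± 0.710 FPKM (0.96), and Nadk, the cytosolic kinase that makes NADP, rose from 91.2 ± 5.17 to 166 ± 4.41 (0.86). Nadk2, its mitochondrial counterpart, fell by 1.04 and Idh2, the mitochondrial isocitrate dehydrogenase, by 0.75. In all, 2 were called higher and 3 lower, of 9, in both LPS against control (15.8% and 15.6% of all genes) and LPS + G-CDs against control (12.8% and 12.4%). In LPS + G-CDs against control, the larger changes were 1.38 for Mthfd2, −0.66 for Nadk2, −0.65 for Glud1 (glutamate dehydrogenase) and 0.49 for Nadk. The change of Nadk was 0.06 under TPM and 0.17 under quantile scaling, and it was called in 17 of 21 alternatives, not without LPS + G-CDs replicate 2.

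Among reductases that spend NADPH, 2 of 12 tested were called higher with G-CDs than with LPS alone and 0 lower by limma on FPKM. Of all genes 0.250% were called higher and 0.242% lower. The voom form also called 2 higher and 0 lower, beside 0.199% and 0.155% of all genes. At an unadjusted p under 0.05 in limma 8 were higher and 0 lower, which 7.19% of all genes passed as higher and 8.04% as lower. Akr1b8, an aldo-keto reductase, had 17.8, 16.6 and 18.7 FPKM in LPS and 63.9, 75.8 and 104 in LPS + G-CDs. Its change was 2.11 ± 0.20 (limma adjusted p 0.0036, called in all 21 alternatives). Blvrb, biliverdin reductase B, had 10.9, 10.7 and 11.8 FPKM in LPS and 30.4, 45.6 and 64.4 in LPS + G-CDs, a change of 1.92 ± 0.26 (limma adjusted p 0.023, called in 15 of 21). The call of Blvrb was lost without any 1 LPS library or LPS + G-CDs replicate 2, with changes of 1.89 to 1.95. For both genes all LPS + G-CDs libraries were above all others. The median of the 12 genes was 0.73, and lay between 0.56 and 0.83 over the alternatives. Por, cytochrome P450 reductase, was the 1 gene of the list with a value below 0 (−0.12).

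In the contrasts with control the counts of this list were as follows. In LPS against control 2 were called higher and 4 lower, of 12, beside 15.8% and 15.6% of all genes, among them Por at 1.52, Cbr3 at −1.60, Ptgr1 at −0.82 (called in 13 of 20 alternatives) and Cbr1 at −0.81 (15 of 21), the last 3 being reductases of carbonyl groups or of prostaglandins and enals. In LPS + G-CDs against control 5 were called higher and 0 lower by limma and its voom form, where limma called 12.8% and 12.4% of all genes (6 and 0 at an unadjusted p under 0.05, beside 18.7% and 17.7% of all genes), with Blvrb at 1.56, Txnrd1 (thioredoxin reductase) at 1.45, Akr1b8 at 1.40 and Por at 1.40. The median of the list there was 0.41 and turned to −0.02 under TPM.

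Of the 6 genes for NADPH oxidase subunits and inducible nitric oxide synthase, 1 was called lower with G-CDs than with LPS alone, beside 0.242% of all genes. Nos2, the synthase, had 1.22, 1.09 and 0.713 FPKM in control, 114, 105 and 96.5 in LPS, and 62.0, 47.8 and 38.7 in LPS + G-CDs. The groups did not overlap. LPS + G-CDs against LPS gave −1.10 ± 0.18 with a limma adjusted p of 0.046, called in 7 of 21 alternatives and not in the voom form. Of the 9 fits without 1 library, the call was kept only without LPS + G-CDs replicate 1. Cybb, the catalytic subunit of the oxidase, had 74.3, 103 and 68.2 FPKM in control, 361, 359 and 332 in LPS, and 298, 198 and 143 in LPS + G-CDs. It was called higher than control in both LPS (2.11) and LPS + G-CDs (1.33), the latter not under TPM (0.90) or quantile scaling (0.98), and its change of −0.78 between the last 2 groups was not called (limma adjusted p 0.28).

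**Figure D4:**
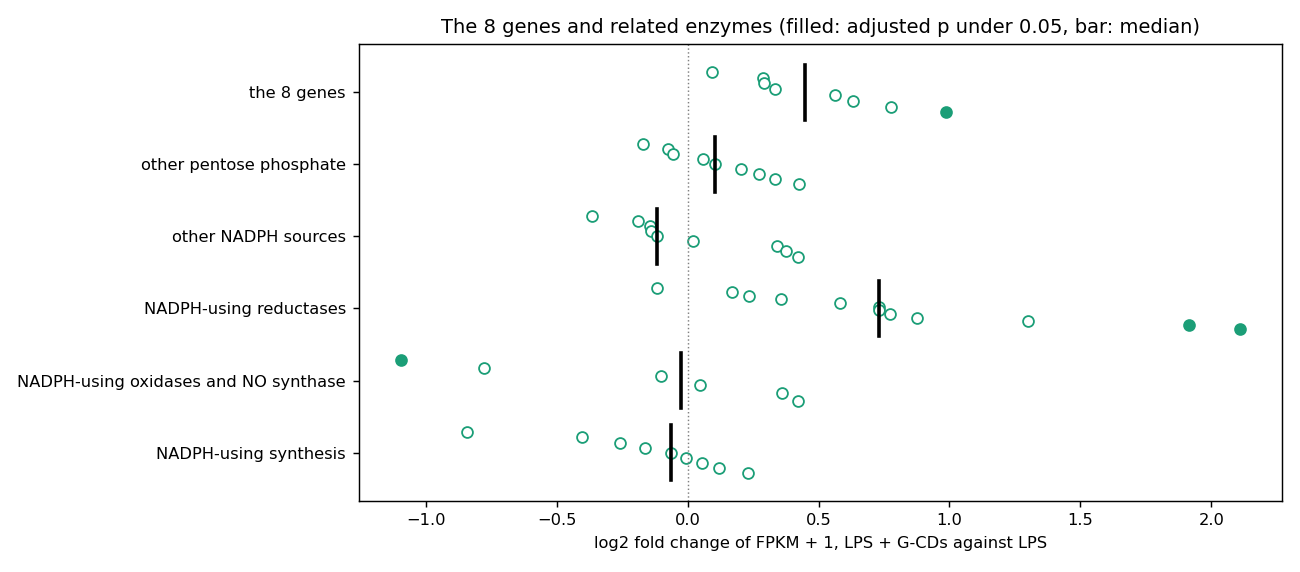
Log2 fold change of FPKM + 1 in LPS + G-CDs against LPS (x axis) for the 8 genes and 5 lists of related genes. Each circle is 1 tested gene, filled at an adjusted p under 0.05, and bars are list medians. The median is 0.45 for the 8 genes, where Me1 turns negative under TPM. It is 0.10 for other pentose phosphate genes (−0.10 to 0.31 over the alternatives, −0.05 under TPM). For other NADPH sources it is −0.12 (−0.29 to 0.01 over the alternatives). The other medians are 0.73 for NADPH-using reductases, −0.03 for oxidases and NO synthase (−0.20 to 0.06), and −0.07 for NADPH-using synthesis.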

How the data were processed

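RNA-seq was analysed in 9 libraries of RAW264.7 cells, 3 each of control, LPS and LPS + G-CDs. The labels describe poly-T selected mRNA and random-hexamer cDNA. The authors deposited FPKM per gene and library with gene coordinates and lengths. The submitters' processing notes name GRCm38 and mm10, and the coordinates equalled a GRCm38 annotation for 53585 of 54495 shared genes. The aligner and the counting tool are not given in the sources used here. Columns of values left unused numbered 0.

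FPKM times gene length gave whole reads (within 0.05 reads) for 100.0% of values in each library, so depth could be read from the file. The library size behind FPKM was 1.108 to 1.14 times the reads on genes in control and 0.88 to 0.98 times in the other groups.

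Values were taken as log2(FPKM + 1), so fold changes of low genes are understated, and tested with limma 3.58.1 in R 4.3.3 (1 model of 3 groups, mean-variance trend, two-sided, Benjamini-Hochberg over 11585 genes). The second rule, p under 0.01 with over 1.5-fold, follows the study's own. The step was tested on simulated data. Python 3.11.15 with pandas 2.3.3 prepared tables. Promoters came from RefSeq, and all 8 genes matched.

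The groups share replicate numbers, whose meaning is not stated. Same-numbered control and LPS libraries deviated together (r of 0.103, 0.137 and 0.113, all over 0.1). LPS with LPS + G-CDs (0.095, 0.08 and 0.143) and control with LPS + G-CDs (0.28, 0.057 and 0.653) did not all pass 0.1. Libraries of unlike number reached 0.504 for control 2 with LPS + G-CDs 1 and −0.671 for control 3 with LPS + G-CDs 1. A fit with a replicate block was among the alternatives. The others changed the pseudocount, the filter, the scaling, the samples, the trend or the test, left out each library, or removed length trends. Removing length and GC trends together was added after seeing the data. Named were the 8 genes, up to 4 called genes per related list and contrast, and the 3 genes most like each of the 8. H6pd, Cybb and Por in contrasts without a call were named after their values were seen. The 8 genes and the lists were chosen with earlier results of these data known. Single genes of the NADPH-using synthesis list are not reported here.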

Additional observations from a re-analysis of the deposited data

How the results depend on the processing

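Of 504 single-gene values of the 8 genes over 21 alternatives, 458 kept their direction and side of the threshold, 15 lost a call, 15 gained one and 16 changed sign. Most values had no call to lose. Alternatives that changed only the filter, the variance trend, the replicate block or the libraries outside a contrast left the fold change as it was. In these only the call could change. TPM moved the median of all genes to −0.135 (LPS + G-CDs against LPS), −0.232 (LPS against control) and −0.376 (LPS + G-CDs against control). Under TPM the medians of the 8 genes were 0.297, −0.850 and −0.337, and the latter contrasts called 6 and 3 of them, where 26.4% and 27.8% of all genes were called lower and 8.66% and 6.57% higher. Quantile scaling gave medians of −0.677 (5 called, beside 20.3% of all genes lower) in LPS against control and −0.185 in LPS + G-CDs against control. With length and GC trends removed the median in LPS against control was −0.431. In LPS + G-CDs against LPS, no filter and the 6 libraries alone called 0 genes, at limma adjusted p of 0.0552 and 0.0734 for Pgd, and removing the length trend, alone or with GC, left 1 gene past the second rule. In LPS + G-CDs against control, no variance trend and removal of length and GC trends each called 2 genes. Of all genes these settings called 12.8% and 15.2% higher, and 12.4% and 15.0% lower. Leaving out 1 library at a time gave 0 to 2 called genes, 1 to 3 past the second rule and medians of 0.288 to 0.507 in LPS + G-CDs against LPS. Of all genes the same fits called 0.0604% to 0.915% higher and 0.0345% to 1.29% lower. The second rule was passed by 192 to 1368 of 11585 genes. Leaving out 1 library gave medians of −0.671 to −0.421 in LPS against control. In LPS + G-CDs against control it gave 1 to 2 called genes and medians of −0.0805 to 0.257. There 8.78% to 14.6% of all genes were called higher and 7.74% to 13.5% lower.

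Me1 became −0.073 (LPS + G-CDs against LPS), −0.12 (LPS against control) and −0.19 (LPS + G-CDs against control) under TPM, and −0.00047 in LPS against control under quantile scaling. The others were in LPS + G-CDs against control. Pgd became −0.15 under TPM and −0.053 under quantile scaling, and Taldo1 −0.22 and −0.11. Leaving out 1 library gave Taldo1 values of −0.016 (without LPS + G-CDs replicate 3) to 0.42. Tkt became 0.057 with the length trend removed and 0.12 with GC as well, and Pgls 0.043 in the latter. Leaving out control replicate 3 or LPS + G-CDs replicate 1 turned Pgls (0.09 and 0.24, with −0.44 as the lowest value of any library left out) and Tkt (0.15 and 0.11). Apart from the scaling and the smaller number of samples that define these settings, the cause was not tested.

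The replicate block changed no call of the 8 genes (1, 3 and 1 called), with Pgd at a limma adjusted p of 0.0396 in LPS + G-CDs against LPS. The fewest reads behind any value of the 8 genes were 432, and each group had 3 libraries.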
